A study of Saccharomyces cerevisiae with 6 samples.

Results

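The SUN and PRY genes of budding yeast (Saccharomyces cerevisiae) encode 2 small families of secreted proteins, and 7 of them are described here among 6205 reading frames on the array. The members are the SUN genes NCA3, UTH1, SIM1 and SUN4 and the PRY genes PRY1, PRY2 and PRY3. They were chosen by gene name, with their ratios in all 6 conditions already known, so their levels are a description and carry no test. Transcripts were measured on 2-colour arrays as ratios of treated cells to control cells of the same strain. All cultures grew in YEPD, a rich glucose medium, at or below an optical density of 1.0.

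Wild-type cells (WT, strain UCC1899) had been rid of their mitochondrial DNA (mtDNA) by a treatment of 6 h with ethidium bromide, a dye that binds DNA, at 30 µg/ml. They were compared with WT cells with intact mtDNA at 3, 11, 19 and 27 h. Cells homozygous for ATP1-111 (strain UCC3980), an allele of ATP1, which encodes the alpha subunit of the ATP synthase in mitochondria, lost mtDNA in the same way and were compared at 27 h with ATP1-111 cells that had kept it. In strain UCC3970 expression of NAR1, needed to build iron-sulfur clusters in the cytosol and essential for growth, was repressed by moving cells from 50 to 2 nM estradiol. The control was a culture that stayed at 50 nM, the comparison was made at 27 h, and the labels give no ethidium bromide treatment for them. The labels do not say whether the control cells saw ethidium bromide, so the dye and the loss of mtDNA cannot be told apart.

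SUN proteins share a cysteine-rich C-terminal domain and are found at the cell wall or secreted, where they are linked to wall remodelling and the separation of mother and daughter cells. Some of them also have recorded roles in mitochondria: Nca3 acts with Nca2 on the expression of mtDNA-encoded subunits of ATP synthase, and Uth1 has been linked to mitophagy, the removal of mitochondria by autophagy. PRY proteins belong to the CAP superfamily, named in part after the pathogenesis-related proteins of plants. Pry1 and Pry2 are secreted, bind sterols and are needed for the export of acetylated sterols, and Pry3 is bound to the cell wall.

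Each condition was a single averaged ratio per gene, so no replicate error belongs to any value. The only spread used here comes from 13 genes with repeated spots, none of them a member. Taken from 2 spots of each gene, their single-spot SD lay between 0.151 and 0.239 on the log2 scale. This SD covers the spot only, not the culture. All 7 members had values in all 6 columns, as did 6151 genes in all, and these genes are the background below. Column medians of the ratio lay between 0.96 and 1.02. The NAR1 transcript had a ratio of 0.031 in the NAR1 column, rank 5 from the lowest, and 2.25 in WT at 27 h. The 4 genes below it in that column were GAL7, GAL1, GAL2 and GAL10, galactose genes named after their values were seen, at ratios of 0.014 to 0.027. The drop in estradiol and the loss of NAR1 came together, so they cannot be told apart in any value of that column.

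The members did not move together. Of the 7 genes, 0 were at least 2-fold from the control at 3 h, in either direction (background 0.341% of genes higher and 0.927% lower). At 11 h 2 were at least 2-fold higher and 0 lower (background 1.22% and 0.634%), at 19 h again 2 and 0 (3.8% and 1.79%), and at 27 h 2 and 0 (5.17% and 2.83%). The genes in each case were NCA3 and PRY1. In ATP1-111 cells 0 members were past 2-fold in either direction (0.65% of genes higher and 0.358% lower). After NAR1 repression 3 members were at least 2-fold higher, NCA3, PRY2 and PRY1, and 1 was lower, SUN4 (2.19% and 3.72%). Because the members were chosen with these values known, nothing is read from the shares.

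**Figure D1:**
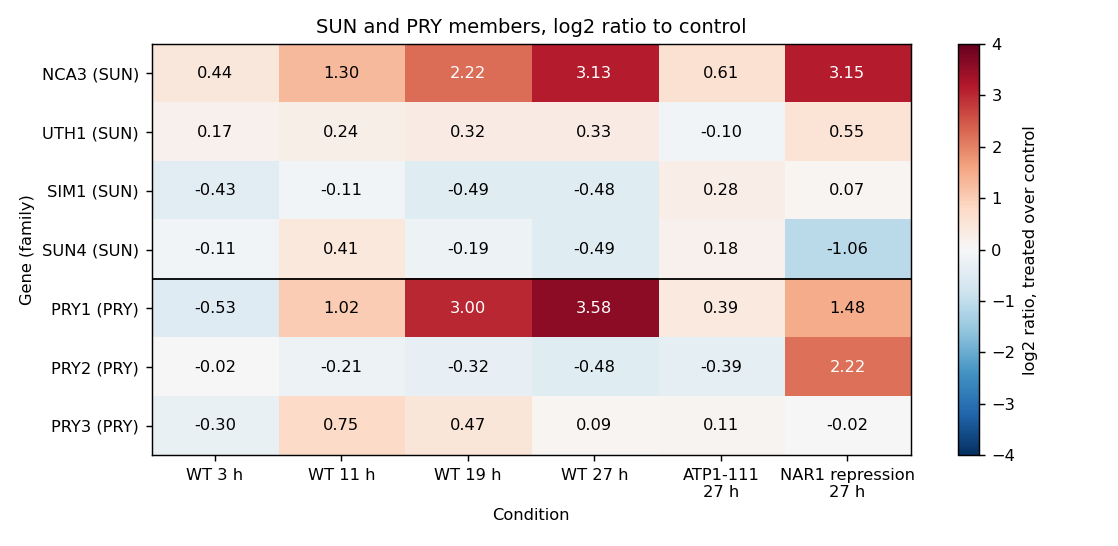
Log2 ratio of treated over control cells for the 7 members (rows, with their family) in the 6 conditions (columns), each number a single authors' average. NCA3 and PRY1 carry the high WT values, up to 3.13 and 3.58 at 27 h, PRY2 is high only after NAR1 repression among these 6 conditions, at 2.22, and UTH1, SIM1 and PRY3 stay between -0.49 and 0.75.

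Within the SUN family NCA3 stood apart. Its ratio after mtDNA loss was 1.36 at 3 h, 2.47 at 11 h, 4.66 at 19 h and 8.77 at 27 h. It was 1.53 in ATP1-111 cells and 8.85 after NAR1 repression. Thus NCA3 was higher at each later WT time, and the repression of NAR1 gave the same height as the last WT time within the spot noise. The increments on the log2 scale were near equal, 0.86 from 3 to 11 h, 0.92 from 11 to 19 h and 0.91 from 19 to 27 h. The line through the 4 WT points therefore left a residual SD of only 0.022, against a median of 0.121 over all genes, and gave a change of 2.69 over 24 h. This residual SD is below the single-spot SD of every column, so it is no measure of precision. UTH1 and PRY2 had similar ones, 0.024 and 0.021. Even steps are a property of the deposited scale: with the columns scaled to equal spread they were 0.86, 0.51 and 0.42, and the fitted change was 1.77.

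The other SUN genes stayed close to the control after mtDNA loss. UTH1, whose protein is linked to mitophagy and which is the duplicate of NCA3 from the ancient genome duplication, had WT ratios of 1.12, 1.18, 1.25 and 1.26 in order of time. It stood at 0.932 in ATP1-111 cells and 1.47 after NAR1 repression. NCA3 and UTH1 thus differed by 0.28 on the log2 scale at 3 h and by 2.80 at 27 h.

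SIM1 and SUN4 are a further duplicate pair. SUN4 encodes a wall protein with a part in cell separation, and its WT ratios were 0.927 at 3 h, 1.33 at 11 h, 0.876 at 19 h and 0.71 at 27 h. It was 1.13 in ATP1-111 cells and 0.478 after NAR1 repression, the only value among the 42 values of the members that was at least 2-fold below the control. SIM1 had WT ratios of 0.742, 0.928, 0.712 and 0.719 and stood at 1.21 in ATP1-111 cells and 1.05 after NAR1 repression. The pair lay 0.02 apart on the log2 scale in WT cells at 27 h and 1.14 apart after NAR1 repression, with SUN4 the lower in each. Both had their highest WT value at 11 h.

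Within the PRY family each gene had a pattern of its own. PRY1, the sterol-binding secreted protein, started below the control with a ratio of 0.692 at 3 h, rank 217 from the lowest of 6151 genes. It was 2.03 at 11 h, 8.01 at 19 h and 11.9 at 27 h, rank 16 from the highest. It passed from the low end of the array to the high end within the time course, a log2 change of 4.11 between 3 and 27 h, or 17.2-fold. Most of this lay before 19 h, with increments of 1.55 and 1.98 and then 0.57. The line through the 4 points left a residual SD of 0.45, and its change over 24 h was 4.29, rank 7 from the highest, or 5.30 without the 27 h column.

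PRY2, which shares with PRY1 the role in sterol export, went the other way after mtDNA loss. Its WT ratios were 0.983, 0.865, 0.8 and 0.719 in order of time. The fitted change over 24 h was -0.44 with a residual SD of 0.021. At 27 h PRY1 lay 4.05 above PRY2 on the log2 scale. After NAR1 repression the order was reversed, with PRY2 at a ratio of 4.65 and PRY1 at 2.80, a log2 difference of -0.73 for PRY1 minus PRY2.

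PRY3, the wall-bound member, had WT ratios of 0.814 at 3 h, 1.68 at 11 h, 1.39 at 19 h and 1.06 at 27 h. It stood at 1.08 in ATP1-111 cells and 0.989 after NAR1 repression. Its highest value was thus at 11 h, rank 154 from the highest of all genes, and it had returned to the control by 27 h. A straight line describes it poorly, since the fitted change over 24 h was 0.26 with all 4 points, -0.99 without the 3 h column and 1.15 without the 27 h column.

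**Figure D2:**
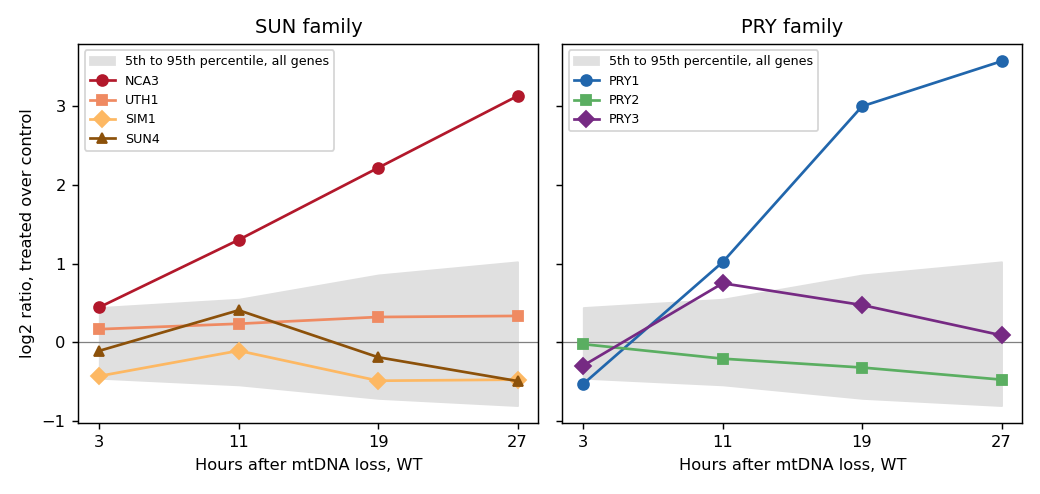
Log2 ratio against hours after mtDNA loss in WT cells, with the SUN genes on the left and the PRY genes on the right. Each point is a single authors' average, lines join points, and the grey band spans the percentiles 5 to 95 over all 6151 genes. NCA3 starts at the upper edge of the band and PRY1 below it, both lie above it from 11 h, PRY3 is above it at 11 h, with a log2 ratio of 0.75, and the other 5 genes lie inside at 27 h.

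Over the 4 WT columns, the fitted change over 24 h was at least 2-fold upward for 2 of 7 members, NCA3 and PRY1, and downward for 0 (5.53% and 2.31% of all genes). NCA3, PRY1 and UTH1 were higher at each of the 3 steps, as 11.9% of all genes were (UTH1 not at the last step once columns are scaled to equal spread, -0.02), and PRY2 was lower at each step, as 15.2% were. The steps of UTH1, at most 0.09, and of PRY2, at most 0.18 in size, were smaller than the spot noise of a difference. Noise in a control shared by the WT columns would enter all 4 points, and whether such a control was used is not given in the sources used here.

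In ATP1-111 cells the 2 genes that were high in WT cells after mtDNA loss were near the control. At 27 h the PRY1 ratio was 1.31 with ATP1-111 against 11.9 in WT cells, a 9.10-fold difference (log2 -3.19). NCA3 had 1.53 and 8.77, a 5.75-fold difference (log2 -2.52). The PRY1 difference was rank 8 from the lowest of 6151 genes and that of NCA3 rank 25. These ranks depend on the WT values at 27 h, known at the choice of members, where PRY1 was rank 16 and NCA3 rank 22 from the highest. In absolute order both were still among the higher genes of the ATP1-111 column, NCA3 at rank 111 and PRY1 at rank 242 from the highest.

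Counted by size, ATP1-111 was at least 2-fold below WT for 2 of 7 members and above it for 0 (4.54% of genes lower and 2.03% higher). SIM1 and SUN4 lay above WT by 0.75 and 0.67 on the log2 scale, and UTH1 below it by a log2 difference of -0.44. These 3 differences were larger than the spot noise of a difference, 0.33, but below 2-fold. PRY2 and PRY3 differed by 0.08 and 0.02, within the spot noise, although PRY2 differed by -0.39 with columns scaled to equal spread. The ATP1-111 column had a narrower spread than WT at 27 h over all genes, with a median absolute deviation of 0.114 against 0.279, and with that scaling the differences were -2.01 for PRY1 and -1.26 for NCA3.

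NAR1 repression gave NCA3 the highest log2 ratio of the 6151 genes, 3.15. PRY2 was rank 7 from the highest at 2.22 and PRY1 rank 28 at 1.48. UTH1 was higher by 0.55, SIM1 and PRY3 stood at 0.07 and -0.02, and SUN4 at -1.06, or -0.86 with columns scaled to equal spread, which is no longer past 2-fold. Against WT at 27 h, 1 member was at least 2-fold higher, PRY2 (log2 difference 2.69, rank 8 from the highest), and 1 was lower, PRY1 (-2.09). The background of these counts was 4.15% of genes higher and 7.25% lower. For NCA3 the difference was 0.01, where the spot noise of a difference was 0.34.

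NCA3 and PRY1 were at least 2-fold higher in both WT at 27 h and the NAR1 column, as were 46 genes in all (0.748%). PRY2 was at least 2-fold higher after NAR1 repression and not in WT at 27 h, as were 89 genes (1.45%). The strains and controls of these columns differ, and the members were picked with both values known.

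**Figure D3:**
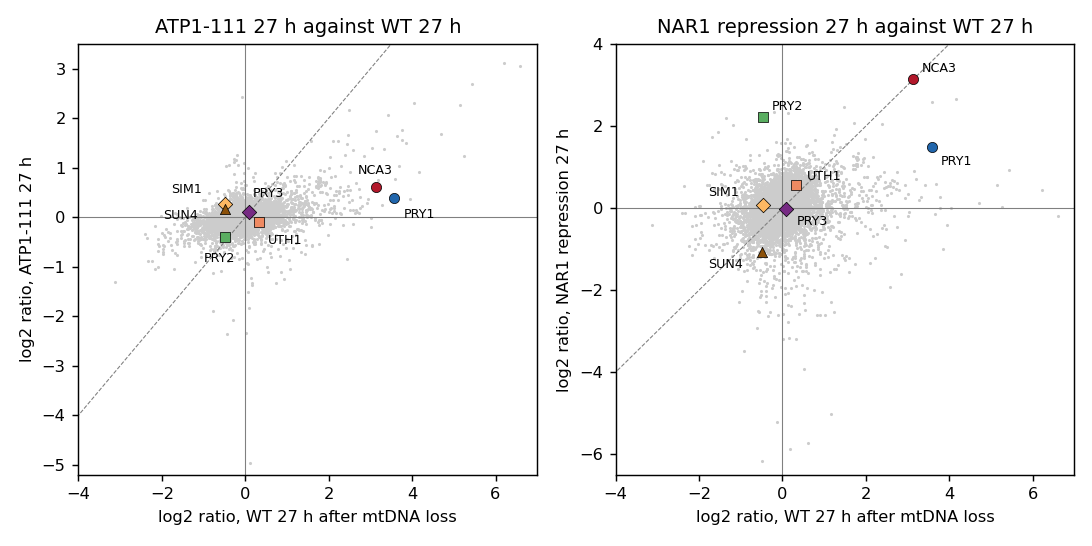
Log2 ratio in ATP1-111 cells (left) and after NAR1 repression (right) against the log2 ratio in WT cells, all at 27 h. Grey dots are all 6151 genes, coloured symbols the 7 members, and the dashed line marks equal values. NCA3 and PRY1 lie far below the line on the left, at 0.61 and 0.39 for WT values of 3.13 and 3.58, and on the right NCA3 lies on the line, PRY1 below it and PRY2 above it.

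The order of the conditions differed from gene to gene. For PRY1 it ran from WT 27 h through WT 19 h, NAR1 repression, WT 11 h and ATP1-111 down to WT 3 h, and each gap, 0.46 or more, exceeded the spot noise of a difference. With columns scaled to equal spread the gap between WT 27 h and WT 19 h was 0.06, and NAR1 repression, at 1.13, fell just below WT 11 h, at 1.18. For NCA3 the order was NAR1 repression, WT 27 h, WT 19 h, WT 11 h, ATP1-111 and WT 3 h. The gaps at either end of it, 0.01 and 0.17, were within that noise. For PRY2 a gap of 2.24 separated NAR1 repression from WT 3 h, and the 4 gaps below it were within the noise. None of the 5 gaps of UTH1 exceeded it. For SIM1 only the gap between WT 11 h and WT 3 h did, and for SUN4 the 2 gaps within noise were those between WT 11 h and ATP1-111 and between WT 3 h and WT 19 h. PRY3 had WT 11 h and then WT 19 h on top with gaps above the noise, and the neighbours among the other 4 conditions differed by less than it. The bar is only 1 SD, and some gaps passed it narrowly. The gap between WT 11 h and WT 19 h was 0.277 against 0.232 for PRY3, and that between ATP1-111 and WT 3 h was 0.286 against 0.281 for SUN4.

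Genes with the most similar patterns were taken as those at the smallest Euclidean distance over the 6 log2 ratios. For NCA3 they were YOR338W, which has no standard name, at a distance of 0.78 (Pearson's r of 0.96 over 6 columns), MIG2 (1.70), a repressor in glucose signalling, the yapsin protease gene YPS3 (2.07), YRO2 (2.11) and PRY1 itself (2.16). YOR338W had ratios of 12.1 in WT at 27 h, 1.71 in ATP1-111 and 5.99 after NAR1 repression. PRY1 was thus rank 5 in distance from NCA3, while NCA3 was rank 15 from PRY1, with an r of 0.82 between them.

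For PRY1 the nearest genes were MIG2 (1.49), the wall glycoprotein gene YGP1 (1.58), CPA1 (1.75) of arginine synthesis, BIO5 (1.79), a transporter of a biotin precursor, and HXT3 (1.81), a glucose transporter. None of these went as far below the control at 3 h as PRY1, the lowest being MIG2 at a log2 ratio of -0.31. The 6 columns are few, some may share a control, and likeness over them is only a description.

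**Figure D4:**
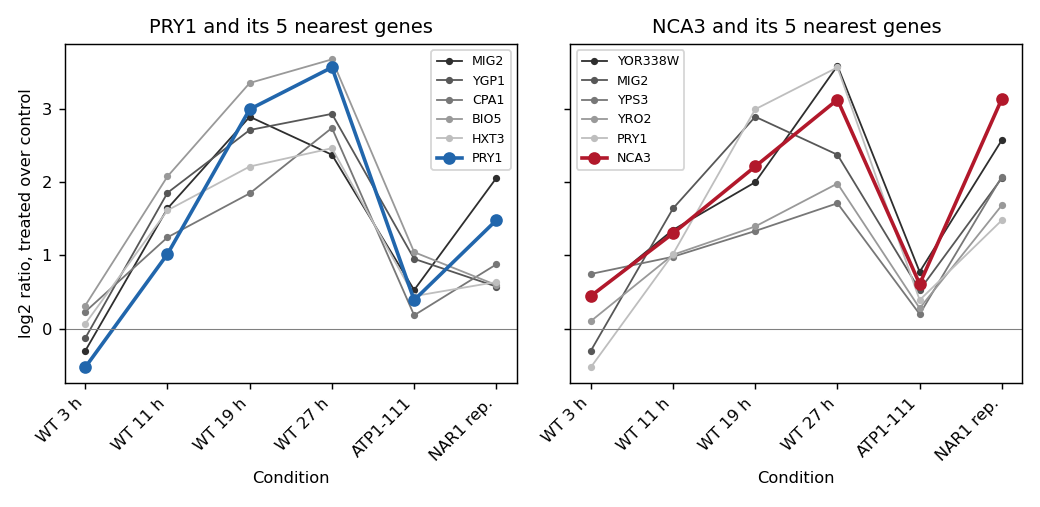
Log2 ratio in the 6 conditions for PRY1 (left, blue) and NCA3 (right, red) with the 5 genes nearest to each by Euclidean distance (grey). Lines join values of a gene and mark no course between different strains. All genes drawn are highest at 19 or 27 h in WT or after NAR1 repression, and all are lower in ATP1-111 than in WT cells at 27 h, PRY1 at 0.39 and NCA3 at 0.61.

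The other 5 members each had a gene closer to them than PRY1 or NCA3 had. Their log2 ratios were smaller, with a root mean square over the 6 columns of 0.32 to 0.95, against 2.06 for PRY1 and 2.12 for NCA3. Distances on this scale depend on the size of the ratios, so a shorter distance is not a closer likeness of pattern. The nearest gene to UTH1 was PRP46, a splicing factor, at 0.14, that of SIM1 EMA19 at 0.21, and that of SUN4 LAM4, a sterol transfer protein at membrane contacts, at 0.35. That of PRY2 was GIC2, an effector of Cdc42 in polarity, at 0.61, and that of PRY3 the frame YJL215C at 0.42. GIC2 had a log2 ratio of 2.34 after NAR1 repression and -0.19 in WT at 27 h, as PRY2 had 2.22 and -0.48. No member was the nearest gene of any other member.

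PRY1 and PRY3 lie next to each other in the reference gene order, yet their patterns parted with time. The log2 difference of PRY1 minus PRY3 was -0.23 at 3 h, 0.27 at 11 h, 2.53 at 19 h and 3.49 at 27 h. On its other side PRY1 borders SCP160, whose log2 ratio was -0.76 in WT at 27 h. NCA3 lies between PHO86 and ASF1, which stood at -0.20 and -0.03 there, so neither neighbour shared its height. The sequences of the array's probes were not used here, and how far related members hybridise to each other's spots was not tested.

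Other genes of the same processes were read from 5 lists named by function, with the 2-fold counts set beside the shares of all genes given above. Of 15 genes of sterol acetylation, esterification and uptake, 4 were at least 2-fold higher and 0 lower in WT at 27 h, with a list median of 0.04 against -0.06 over all genes. They were AUS1, a sterol importer, HES1, an oxysterol-binding protein, DAN1, an anaerobic wall protein tied to sterol uptake, and UPC2, the regulator of sterol uptake, at log2 ratios of 3.94, 3.77, 3.77 and 2.75. In ATP1-111 cells 2 of 15 were higher, DAN1 at 1.76 and HES1 at 1.57. After NAR1 repression these 4 genes had values between -0.47 and 0.28, where PRY1 stood at 1.48 and PRY2 at 2.22. In that column 1 of 15 was at least 2-fold higher, the sterol ester lipase gene YEH1 at 1.32, and 1 lower, SWH1, of an oxysterol-binding protein, at -1.34, both named after their values were seen. The list median there was -0.35 against 0.03 over all genes, and 4 of 15 genes lay above 0. ATF2 and SAY1, which acetylate and deacetylate the sterols that Pry1 and Pry2 export, had log2 ratios of -0.29 and 0.04 in WT at 27 h and -0.29 and 0.20 after NAR1 repression. ATF2 was lower at earlier WT times, -0.89 at 11 h and -0.68 at 19 h.

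Among 17 glucan remodelling enzymes of the wall, 2 were at least 2-fold higher and 2 lower in WT at 27 h, and 4 and 0 after NAR1 repression. The higher WT genes were SCW4 (1.30) and GAS2 (1.18), and the lower ones GAS3 (-1.34) and UTR2 (-1.13). Those higher after NAR1 repression were SCW10, GAS2, KRE6 and CRH1, at 1.68, 1.62, 1.22 and 1.17, with UTR2, KRE6 and CRH1 named after their values were seen. SCW10, a wall protein related to glucanases, had -0.86 in WT at 27 h, so its sign was opposite in the 2 conditions, as for PRY2. The list median after NAR1 repression was 0.33 against 0.03 over all genes.

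Of 15 daughter-cell and M/G1 genes, a set that includes wall enzymes of cell separation, 1 was at least 2-fold higher at 19 h and at 27 h in WT, DSE4, with 1.03 and 1.01. At 11 h 0 were past 2-fold, although the list median was 0.45 against -0.01 over all genes and 11 of 15 lay above 0. DSE2, CTS1 and SCW11 had log2 ratios of 1.00, 0.91 and 0.90 at 11 h and 0.54, 0.71 and 0.41 at 27 h. DSE4 differed from them, with 0.79 at 11 h and its higher value at 27 h. PRY3, with 0.75 and 0.09, and SUN4, with 0.41 and -0.49, were higher at 11 than at 27 h.

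The remaining lists are tied to the mitochondrial roles of Nca3 and Uth1. Of 11 genes for the expression and assembly of ATP synthase, 0 were past 2-fold in WT at 11, 19 or 27 h, in ATP1-111 cells or after NAR1 repression, and 1 was lower at 3 h, MTF2, at -1.16. NCA2, the partner of NCA3, lay between -0.23 and -0.02 in all 6 columns. In WT at 27 h AEP1, ATP22 and ATP23, which act on ATP synthase expression or assembly, stood at 0.54, 0.52 and 0.31, while AEP2 and ATP10, named after their values were seen, stood at -0.47 and -0.42. Of 8 mitophagy genes, 2 were at least 2-fold higher in WT at 27 h, where 5.17% of all genes were, the receptor gene ATG32 at 1.89 and the kinase gene ATG1 at 1.01, where UTH1 stood at 0.33. PTC6, a phosphatase, and ATG11, an adaptor, stood at 0.43 and 0.26 there. In ATP1-111 cells ATG32 had 0.24, and 0 of 8 were past 2-fold.

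**Figure D5:**
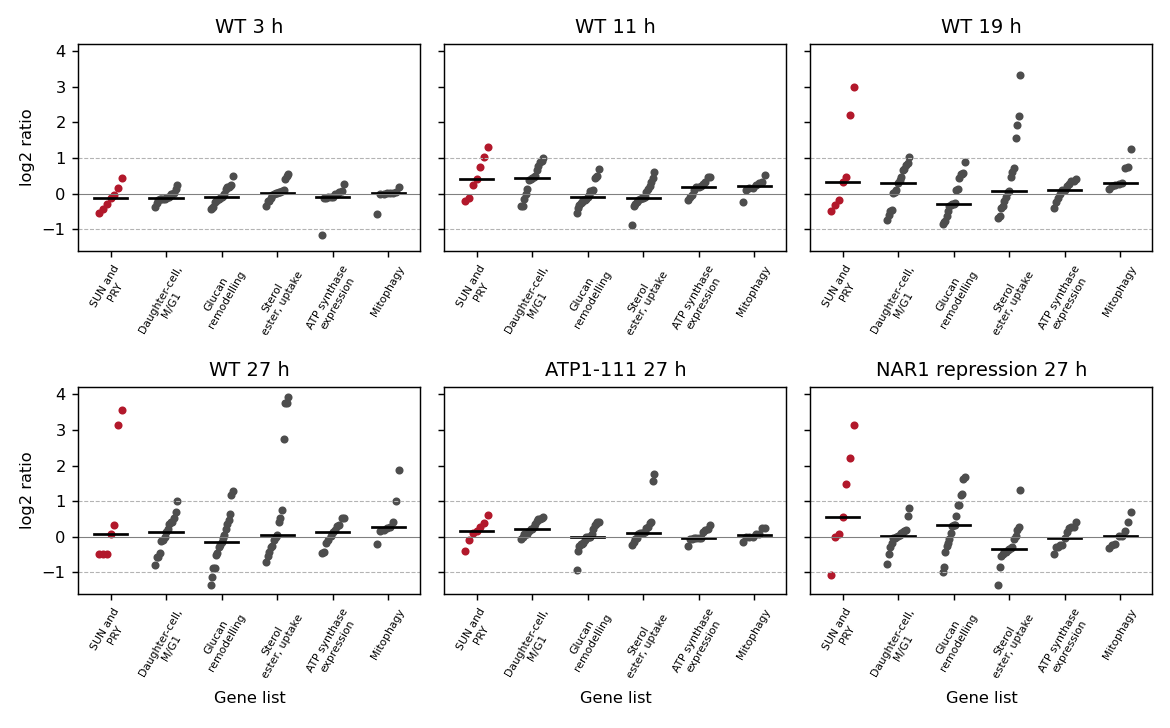
Log2 ratios of single genes (dots) in the 6 conditions for the 7 members (red) and the 5 lists (grey), with the list median as a bar and dashed lines at 2-fold. In WT at 27 h the dots above a log2 ratio of 2 are NCA3 and PRY1 among the members and 4 sterol genes, and after NAR1 repression the members NCA3, PRY2 and PRY1 lie above the highest dots of the daughter-cell, ATP synthase and mitophagy lists.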

How the data were processed

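The values are linear ratios, deposited as the authors' average over 6 arrays, or 5 for ATP1-111, from 3 biological replicates, per the labels. Arrays with the dyes swapped covered all 3 replicates, but only 2 of the 3 for ATP1-111. Per the labels' protocols, RNA was extracted with acid phenol and oligo(dT)-primed cDNA was coupled to Cy3 or Cy5. Not given in the sources used here are the scanner, background correction, normalization and genome build. The ratio's direction, treated over control, comes from the sample titles, and the NAR1 row bears it out for the NAR1 column only. Of 6259 rows, 28 whose names were not systematic names of nuclear reading frames were left out. Ratios were taken to log2, repeated spots of a gene were averaged, and 6205 frames remained. The row and frame counts leave room for more repeated spots than the 2 per gene, for 13 genes, used for the SD. Of the frames, 5705 matched locus tags of the RefSeq table (assembly R64), which gave the symbols and gene order. The 6151 genes with all 6 values served as the background. A call means at least 2-fold, and no test was run, since each condition is 1 averaged column and the members were chosen with these values known. Spot noise of a difference is the root of the summed squares of both columns' single-spot SDs. It is thus 1 SD, which a difference made by spot noise alone can exceed. WT changes over 24 h are least-squares lines, a calculation tested on simulated data. Named genes were the 7 members, NAR1, for each list the 4 genes or fewer farthest from 0 in any column, the 5 nearest genes of PRY1 and NCA3 and the nearest gene of the others. ATP1, which the rule also names, stood at -0.33 (log2) in the WT 27 h column and at -0.12 in the ATP1-111 column. NCA2, ATF2, SAY1 and the gene order neighbours were named after their values were seen. Members and lists were chosen with earlier results of these data known. Python 3.11.15, numpy 2.4.6, pandas 2.3.3 and matplotlib 3.10.9 were used.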

Additional observations from a re-analysis of the deposited data

Results flagged for a closer look

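In the same comparison of cells without and with mtDNA at 27 h, 3 SUN genes lay on opposite sides of their control in WT and ATP1-111 cells. On the log2 scale UTH1 stood at 0.33 in WT but at -0.10 in ATP1-111 cells, a difference of -0.44. SIM1 had -0.48 and 0.28, a difference of 0.75, and SUN4 had -0.49 and 0.18, a difference of 0.67. The ATP1-111 values of UTH1 and SUN4 are smaller than the single-spot SD of that column, 0.229, and that of SIM1 is only slightly larger. This SD leaves out the culture, so the side of the control is not settled for any of the 3 genes. Each value is a single averaged column, none of the 6 values was 2-fold from the control, and the difference was not tested.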

How the results depend on the processing

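No paired analysis was possible because each condition has a single averaged column. Of 287 recalculated values of single members, 256 moved by less than the spot noise, 31 moved by more, and 0 of those at least 2-fold from the control changed sign. Using every gene with a value and averaging spots as ratios could not move any member's value. All 7 members had all 6 values and 0 had 2 spots, so each of these 2 settings adds 63 unmoved values to the 256. Centring columns on their medians moved none of the members' values by more than that noise, and could not have done so. The medians, -0.06 to 0.03 on the log2 scale, are small beside the spot noise. The 63 unmoved values of this setting were thus also fixed in advance. Scaling columns to equal spread moved 23 and left 40. Columns scaled to equal spread gave 1 member at least 2-fold higher in ATP1-111 cells, NCA3, and 0 at least 2-fold lower after NAR1 repression. A threshold of 1.5-fold gave 1 member higher in ATP1-111 cells and 2 higher in ATP1-111 than in WT cells, SIM1 and SUN4, and 3-fold gave 0 higher at 11 h and 0 lower after NAR1 repression. The shares of all genes at these other settings are not given here, so nothing is read from the counts in this paragraph. Leaving out each WT column in turn gave between 0 and 1 members with a fitted fall of at least 2-fold, the 1 being SUN4 without 3 h (-1.35, against -0.53 with all 4 columns), and between 2 and 3 with a fitted increase, PRY3 being the added gene. PRY1's fitted change lay between 3.83 and 5.30 in these fits. At 1.5-fold, counted in either direction, the daughter-cell list had 3 genes past the threshold in WT at 27 h and 3 after NAR1 repression. The glucan list had 7 and 9, and the mitophagy list 1 after NAR1 repression. The daughter-cell and glucan counts hold both higher and lower genes in each of these columns. The spread between biological replicates cannot be recovered from averages, and spot brightness was not used, so weak and bright spots count alike.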
